A study of Mus musculus with 40 samples.

Results

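The nucleolar ribosome biogenesis genes described here are 51 protein-coding genes taken by symbol, out of 23328 gene symbols in the 3 deposited count tables. All 51 were present in each table, and all 51 passed the filter on low counts in every comparison, so no member is missing from the counts given here. The RNA came from C57BL/6 thymocytes of 2 stages, the early T-cell precursor (ETP) and the later DN3 stage, and made up 40 libraries in 12 groups. AntiNRR mice received 10 mg/kg of a blocking antibody to the Notch1 negative regulatory region, and IgG mice received an isotype control; their cells were sorted 24 hours later (3 libraries per group and stage). DeltaMxCre mice were MxCreZmiz1f/f animals, and their MxCre controls carried the same Cre without the floxed alleles. Both received 5 injections of 40 mcg pI-pC, and cells were sorted 8 weeks later (3 mice per group). DeltaTamCre mice were Rosa26CreERT2Zmiz1f/f animals and TamCre mice carried Rosa26CreERT2 alone. Both received 0.2 mg/g tamoxifen, and cells were sorted 43 to 44 hours later (4 mice per group). MxCre is driven by an interferon-inducible promoter and Rosa26CreERT2 by a ubiquitous one, neither of which is specific to thymocytes, and the controls carried the Cre and received the inducing agent too. For the antibody groups the labels give no number of mice, so their p-values measure the spread between libraries, which may be technical.

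Ribosomes are assembled in the nucleolus. RNA polymerase I transcribes a long precursor RNA, small nucleolar ribonucleoproteins guide its chemical modification, and a large set of assembly factors fold, cut and package it into the small and the large subunit. Growing cells need many ribosomes, and the transcription factor Myc, which Notch1 induces in immature thymocytes, is known to bind and activate many genes of this programme. Zmiz1 is a co-activator of Notch1, and the comparisons ask which genes depend on Zmiz1 or on Notch1 at each stage. The members comprise 3 subunits of RNA polymerase I, 4 proteins of box C/D and 4 of box H/ACA small nucleolar ribonucleoproteins, 6 abundant multifunctional nucleolar proteins, 16 factors of small-subunit assembly and 18 of large-subunit assembly.

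Library totals were 9456818 to 23962395 counts for the pI-pC and antibody groups, 48127197 to 91659598 counts for tamoxifen DN3 and 17418638 to 30975324 counts for tamoxifen ETP. The lowest count of any member in any library was 86, 2143 and 183 in those 3 tables, so none of the members was near zero. The tables were made with different library kits and are not compared with each other. Per the labels both stages were sorted as CD44+CD25-, whereas Cd44 RNA ran from 0.536 to 6.94 CPM in DN3 libraries but from 47.9 to 312 CPM in ETP libraries, where CPM is a count relative to library size, scaled by the trimmed mean of M values (TMM). Il2ra, which encodes CD25, was abundant in both stages, at 2275 to 4161 CPM in MxCre DN3 and 1647 to 2327 CPM in MxCre ETP. The library MxCre ETP 3 stood apart, with 0.0777% of its counts in the nuclear RNA Malat1 against 0.422% and 0.484% in the other MxCre ETP libraries. Its replication (S phase) genes were also the highest of its group. Among markers of other lineages in DN3 libraries, thymic stromal markers summed to 52.02 to 99.5 CPM, B-cell markers to at most 60.1 CPM and myeloid markers to at most 25.7 CPM. Natural killer markers summed to at most 18.9 CPM and erythroid markers to at most 11.4 CPM, with Elane and Klrd1 at 0 in all DN3 libraries. ETP libraries held more of some: myeloid markers summed to 91.4 to 515 CPM in AntiNRR ETP and 78.0 to 343 CPM in IgG ETP. Natural killer markers reached 360 CPM in MxCre ETP and 1007 CPM in DeltaTamCre ETP.

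In every group the members covered a wide range of levels. Per kilobase of exon, Npm1, a histone and ribosome chaperone, was the most abundant member in all 12 groups, at 317 CPM per kilobase in AntiNRR DN3 and 431 CPM per kilobase in IgG DN3. Pa2g4, a growth-regulated RNA-binding protein, and Ncl, the nucleolin that binds the nascent precursor, came next in 11 groups. In AntiNRR ETP Noc2l came before Ncl. The length used joined all annotated exons of a gene, 10188 bases for Ncl and 2665 for Npm1, so this order depends on the annotation. In CPM, Ncl was above Npm1 in TamCre ETP, at 2231 to 2426 against 1173 to 1222 CPM. In AntiNRR ETP it was below Npm1, at 430 to 571 against 858 to 1335 CPM, and above Noc2l, at 121 to 175 CPM. Together the 51 members took 0.505% ± 0.0062 of all counts in AntiNRR DN3 and 0.779% ± 0.029 in IgG DN3 (SD, n = 3 each). That share was 0.511% ± 0.081 in AntiNRR ETP and 0.662% ± 0.035 in IgG ETP. Among pI-pC groups it was 0.735% ± 0.062 in DeltaMxCre DN3 against 0.886% ± 0.041 in MxCre DN3, and 0.617% ± 0.018 in DeltaMxCre ETP against 0.660% ± 0.106 in MxCre ETP. With 4 libraries each, it was 1.22% ± 0.046 in DeltaTamCre DN3 and 1.43% ± 0.072 in TamCre DN3, and 0.728% ± 0.091 in DeltaTamCre ETP and 0.866% ± 0.026 in TamCre ETP. In all 6 pairs the treated or deleted group had the lower mean share, and the libraries of the pair overlapped only in pI-pC ETP. These are shares of RNA in a bulk sample, in which fewer cells of a type and less RNA per cell cannot be told apart. The totals include the ribosomal RNA precursor gene Rn45s, which took from 0.356% (DeltaTamCre DN3 1) to 31.5% (DeltaTamCre ETP 2) of a library's counts. Rows named as cytosolic ribosomal protein genes numbered 80 in the pI-pC and antibody table and 0 in both tamoxifen tables. The totals are therefore not of like gene sets between tables.

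**Figure D1:**
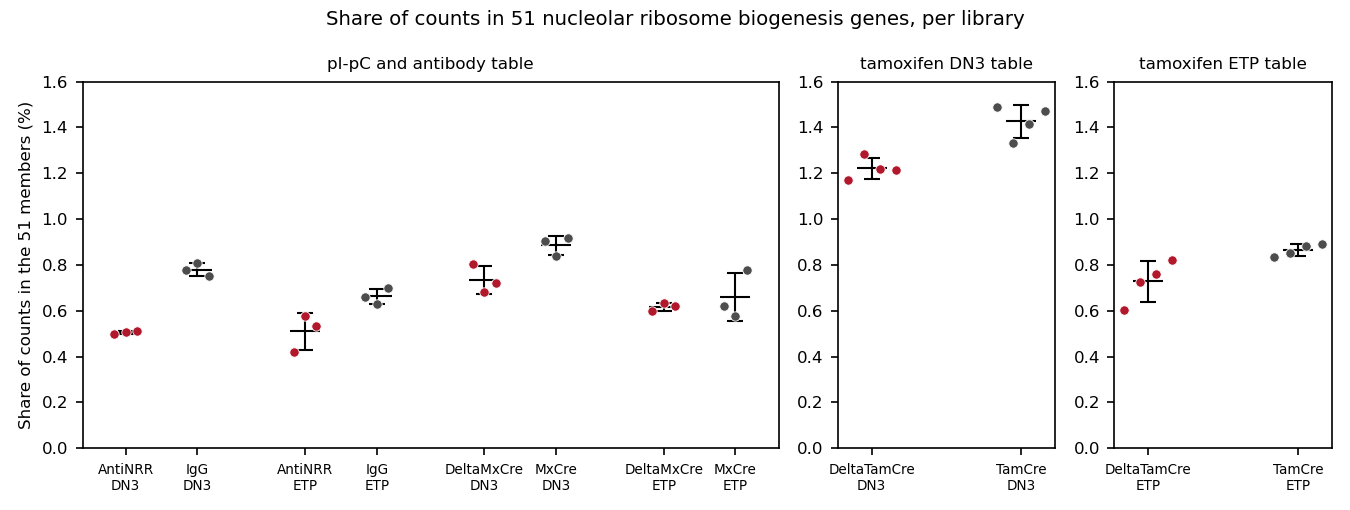
Share of each library's counts (y axis, percent) that fell in the 51 members, by group (x axis), in 3 panels for the 3 tables. Points are libraries, the bar is the mean and the whiskers are 1 SD. AntiNRR DN3 libraries sit near 0.505% and IgG DN3 libraries near 0.779%, while DeltaMxCre ETP and MxCre ETP overlap.

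Notch1 blockade in DN3 cells was the comparison in which most members passed the test. By the quasi-likelihood F test of edgeR, at a Benjamini-Hochberg adjusted p under 0.05 over 12658 genes, 27 of the 51 members fell in AntiNRR DN3 relative to IgG DN3 and none rose. Over all genes tested, 2.96% fell and 2.65% rose. DESeq2 called those 27 and Ddx18, a helicase of the large subunit (3.61% of all genes were lower by DESeq2; edgeR adjusted p = 0.0607 and DESeq2 adjusted p = 0.0300 for Ddx18). The median log2 fold change of the members was -0.59, against -0.014 for all genes, and 50 of the 51 were below 0. In 39 members every AntiNRR library was below every IgG library, where 11.5% of all genes showed that, and in none was every AntiNRR library above, where 10.9% of all genes did. Called members stood between 0.46 (Nop16) and 0.73 (Npm1) of their IgG level.

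RNA polymerase I came first in the pathway. Its largest subunit, Polr1a, had 134, 189.6 and 148 CPM in AntiNRR DN3, against 210.0, 281 and 215 CPM in IgG DN3. The libraries did not overlap, and the log2 fold change was -0.58 ± 0.13 (SE; edgeR adjusted p = 0.0104). Polr1b, the second-largest subunit, had 64.4, 56.7 and 73.2 CPM in AntiNRR DN3, against 94.5, 91.8 and 97.998 CPM in IgG DN3, again without overlap (-0.55 ± 0.15; edgeR adjusted p = 0.0263). Polr1c, which polymerase III shares, ranged over 7.45 to 14.9 CPM in AntiNRR DN3, against 13.4 to 22.8 CPM in IgG DN3. Its groups overlapped, and it did not pass the test (edgeR adjusted p = 0.398).

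Among proteins of the box C/D particles, whose RNAs guide 2'-O-methylation of the precursor, 3 of 4 fell. Nop58, a core scaffold, had 114, 125 and 131 CPM in AntiNRR DN3, against 216, 219 and 211 CPM in IgG DN3. Its partner Nop56 had 116, 114 and 129.9 CPM in AntiNRR DN3, against 192, 192 and 185 CPM in IgG DN3. Both genes fell well below their controls with little spread within a group, by log2 fold changes of -0.80 ± 0.11 and -0.66 ± 0.11 (edgeR adjusted p = 4.96e-05 and 0.000466). Fbl, the methyltransferase fibrillarin, had 55.01, 51.6 and 53.7 CPM in AntiNRR DN3, against 108, 81.5 and 69.3 CPM in IgG DN3. The IgG libraries of Fbl were spread widely but all lay above the AntiNRR ones (-0.69 ± 0.17; edgeR adjusted p = 0.0146). Rrp9, specific to the U3 particle, was at 13.6 to 22.3 CPM in AntiNRR DN3, against 27.5 to 29.997 CPM in IgG DN3 and did not pass (edgeR adjusted p = 0.120).

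Box H/ACA particles carry the RNAs that guide pseudouridylation. Dkc1, the pseudouridine synthase dyskerin, had 98.2, 120.4 and 109 CPM in AntiNRR DN3, against 169, 176 and 189 CPM in IgG DN3, a log2 fold change of -0.71 ± 0.12 (edgeR adjusted p = 0.000436). Nhp2 also fell, with 17.5, 29.02 and 25.5 CPM in AntiNRR DN3, against 49.4, 34.4 and 49.95 CPM in IgG DN3 (-0.90 ± 0.24; edgeR adjusted p = 0.0242). Neither gene's groups overlapped. The small proteins Nop10 and Gar1 had log2 fold changes of -0.44 ± 0.23 and -0.65 ± 0.37 and did not pass.

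All 6 multifunctional nucleolar proteins fell. Ncl had the lowest p of any member, with 790.4, 756 and 752 CPM in AntiNRR DN3, against 1345, 1308 and 1173 CPM in IgG DN3. The 3 AntiNRR libraries lay close together and far below the IgG ones, for a log2 fold change of -0.74 ± 0.088 (edgeR adjusted p = 1.46e-05). Pa2g4 had 232, 232 and 259 CPM in AntiNRR DN3, against 399.6, 429.6 and 395 CPM in IgG DN3, with no overlap (-0.76 ± 0.097; edgeR adjusted p = 2.66e-05). Gnl3, the GTP-binding protein nucleostemin, changed most in this group. It had 51.4, 39.8 and 42.6 CPM in AntiNRR DN3, against 92.05, 87.4 and 80.9 CPM in IgG DN3 (-0.96 ± 0.16; edgeR adjusted p = 0.000542). Mybbp1a, a nucleolar Myb-binding protein, had 226, 266 and 297 CPM in AntiNRR DN3, against 436, 430.4 and 394 CPM in IgG DN3 (-0.68 ± 0.11; edgeR adjusted p = 0.000225). Npm1 showed the smallest fall of the 6, with 1021, 770.2 and 886 CPM in AntiNRR DN3, against 1314, 1245 and 1111 CPM in IgG DN3 (-0.46 ± 0.10; edgeR adjusted p = 0.00689). Nolc1, a chaperone of small nucleolar ribonucleoproteins, averaged 99.3 ± 10.1 CPM in AntiNRR DN3 and 141 ± 14.4 CPM in IgG DN3 (SD, n = 3 each; edgeR adjusted p = 0.0169).

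Of the small-subunit assembly factors 5 of 16 fell. Utp20, a scaffold of the small-subunit processome, had 95.4, 141 and 136 CPM in AntiNRR DN3, against 191, 216 and 197 CPM in IgG DN3 (-0.70 ± 0.13; edgeR adjusted p = 0.00166). Wdr43, a processome subunit, had 154, 193 and 174 CPM in AntiNRR DN3, against 256, 256 and 272 CPM in IgG DN3 (-0.59 ± 0.11; edgeR adjusted p = 0.00132). Tsr1, a late cytoplasmic factor of the small subunit, was at 45.9, 53.1 and 40.9 CPM in AntiNRR DN3, against 77.1, 82.97 and 80.6 CPM in IgG DN3 (-0.78 ± 0.16; edgeR adjusted p = 0.00422). In each of these 3 genes the groups were apart. Rrp12, an export factor, and Heatr1, a processome scaffold, were the other called members, with log2 fold changes of -0.80 and -0.48. The 11 that did not pass ran from -0.64 in Wdr75 to -0.029 in Ltv1, and Mphosph10 was at -0.066. Rcl1, a processome protein related to RNA cyclases, had 52.01, 50.6 and 45.7 CPM in AntiNRR DN3, against 60.9, 63.3 and 62.7 CPM in IgG DN3. Its groups did not overlap, and it did not pass (-0.33 ± 0.17; edgeR adjusted p = 0.314).

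Of the large-subunit factors 9 of 18 fell. Noc2l, which escorts precursors out of the nucleolus, had 131, 151 and 137 CPM in AntiNRR DN3, against 219, 222 and 244 CPM in IgG DN3 (-0.71 ± 0.11; edgeR adjusted p = 0.000185). The helicase Ddx21, which couples polymerase I to processing, had 235, 316 and 296 CPM in AntiNRR DN3, against 379, 482 and 427 CPM in IgG DN3 (-0.61 ± 0.11; edgeR adjusted p = 0.00166). Mrto4, which holds the place of a stalk protein on the precursor, had 21.1, 19.6 and 16.98 CPM in AntiNRR DN3, against 33.03, 49.9 and 38.96 CPM in IgG DN3. Its fold of 0.47 and the fold of 0.46 in Nop16 were the smallest ratios among the members. Bop1 belongs to the PeBoW complex with Pes1 and Wdr12, and averaged 38.5 ± 2.23 CPM in AntiNRR DN3 and 60.4 ± 4.84 CPM in IgG DN3 (SD, n = 3 each), without overlap (-0.65 ± 0.18; edgeR adjusted p = 0.0295). Its partners did not pass, at log2 fold changes of -0.37 ± 0.12 for Pes1 and -0.36 ± 0.15 for Wdr12 (edgeR adjusted p = 0.0726 and 0.196). Whether the 3 partners differ from each other was not tested. Rrp1b, Grwd1, Noc3l and Ppan were the remaining called members, between -0.91 in Rrp1b and -0.67 in Ppan. Nip7 was the single member above 0, at 53.1, 54.7 and 44.6 CPM in AntiNRR DN3, against 54.5, 41.97 and 55.5 CPM in IgG DN3. Its groups overlapped fully (0.0036 ± 0.18), and its sign turned under upper-quartile scaling.

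**Figure D2:**
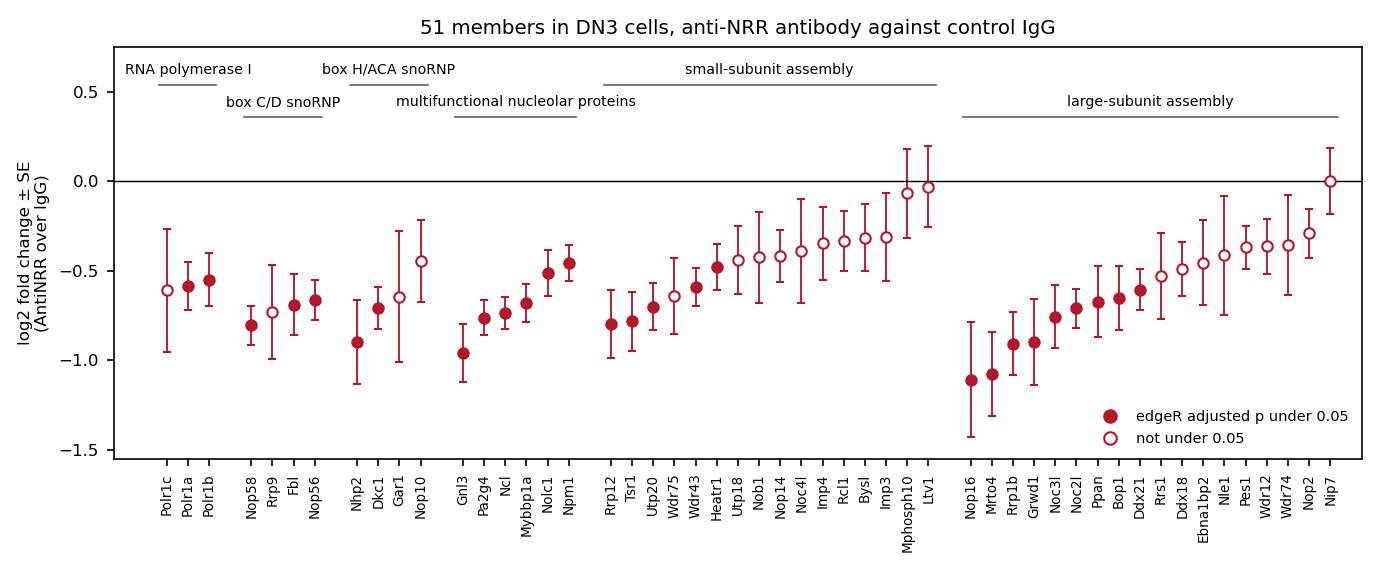
Log2 fold change of each member (y axis, AntiNRR over IgG in DN3 cells, 3 libraries each) with its standard error as whiskers, grouped by role and ordered within a role (x axis). Filled points had an edgeR adjusted p under 0.05. Filled points fill the multifunctional group, and Nip7 at 0.0036 is the only point above the line.

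Which members were called depended on single libraries at the margin. Leaving out each library in turn gave 16 to 25 called members, with 16 without IgG DN3 2. Across those 6 fits and 7 other settings, 13 members kept their call in every one, namely Nop56, Nop58, Dkc1, Ncl, Gnl3, Pa2g4, Mybbp1a, Utp20, Wdr43, Tsr1, Rrp1b, Noc2l and Ddx21.

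Other ribosome biogenesis genes outside the 51 were mostly lower too. Of 108 such genes, listed from knowledge of the pathway but with earlier results of these data known, 107 were tested in AntiNRR DN3. Their median log2 fold change was -0.35 against -0.014 for all genes, and 97 were below 0, where 51.3% of all genes were. By edgeR 16 fell and none rose, where 2.96% of all genes fell and 2.65% rose. Among them were Taf1d, a subunit of the polymerase I initiation factor (-0.87 ± 0.13; edgeR adjusted p = 8.96e-05), Nat10, an RNA acetyltransferase (-0.84 ± 0.16; edgeR adjusted p = 0.00162), and Mdn1, a remodelling ATPase of the large subunit (-0.65 ± 0.11; edgeR adjusted p = 0.000808). Mature ribosomal RNA is cut from the 45S precursor, so counts of the precursor gene, Rn45s, do not separate precursor from mature RNA. Rn45s was higher in these DN3 cells under the antibody. It had 47886, 56201 and 69040.0 CPM in AntiNRR DN3, against 37406, 27197 and 28426 CPM in IgG DN3, with all AntiNRR libraries above all IgG libraries (0.90 ± 0.16; edgeR adjusted p = 0.0124). That call was lost without the filter on low counts (adjusted p = 0.114) and with replicate number as a block (adjusted p = 0.319). Per the labels these libraries went through ribosomal RNA depletion, and its part in these values was not tested.

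Myc fell with the members. It had 71.6, 71.7 and 66.2 CPM in AntiNRR DN3, against 181, 114 and 119.8 CPM in IgG DN3, a log2 fold change of -0.99 ± 0.16 without overlap (edgeR adjusted p = 0.000253), although the call was lost when the spread was estimated over all 4 DN3 groups of the table (adjusted p = 0.0927). Cell-cycle and stage genes also moved in this comparison. Of 20 S-phase genes 3 fell and none rose, with a median log2 fold change of -0.40, and their summed level was 2219 to 3198 CPM in AntiNRR DN3 and 3171 to 3525 CPM in IgG DN3. No mitosis gene of 20 passed, and their sums varied widely under the antibody, at 417 to 1764 CPM in AntiNRR DN3 and 825 to 957 CPM in IgG DN3. Of 10 DN3 stage markers 5 fell, with sums of 8639 to 9666 CPM in AntiNRR DN3 and 10833 to 11447 CPM in IgG DN3, and ETP stage markers summed to 197 to 237 CPM in AntiNRR DN3 and 137 to 157 CPM in IgG DN3. The part of these shifts in the members' fall was not tested.

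In ETP cells the same antibody gave lower values for most members, none past the edgeR threshold. Among all 12568 genes tested 0.00% passed in either direction. At an unadjusted p under 0.05 there were 15 members, all lower, against 2.86% of all genes lower, and DESeq2 called 2 members lower, Rrp12 and Nolc1 (0.167% of genes). The median log2 fold change was -0.38 against 0.011 for all genes, and 48 members were below 0. In 21 members every AntiNRR library lay below every IgG library (5.94% of all genes), and in 1, Polr1c, every one lay above (5.86%). Rrp12 had 29.9, 40.8 and 41.04 CPM in AntiNRR ETP, against 80.3, 83.3 and 72.4 CPM in IgG ETP. Its groups were well apart (-1.08 ± 0.22; edgeR adjusted p = 0.257; DESeq2 adjusted p = 0.00793). Nolc1 had 39.9, 81.8 and 49.9 CPM in AntiNRR ETP, against 113, 99.7 and 160.4 CPM in IgG ETP (-1.12 ± 0.26; edgeR adjusted p = 0.485). Both are shown because DESeq2 called them. Ddx21 had 148, 214 and 130.3 CPM in AntiNRR ETP, against 253, 260.3 and 296 CPM in IgG ETP (-0.72 ± 0.19; edgeR adjusted p = 0.605). For Ncl the values were 437, 578 and 519.9 CPM in AntiNRR ETP, against 721, 731 and 857 CPM in IgG ETP, also without overlap (-0.59 ± 0.16; edgeR adjusted p = 0.605). Library AntiNRR ETP 1 was the lowest of its group in Ncl and Nolc1. Npm1 overlapped between groups, at 870.1 to 1352 CPM in AntiNRR ETP, against 1196 to 1588 CPM in IgG ETP. Myc had 39.3, 87.6 and 96.9 CPM in AntiNRR ETP, against 179, 140.5 and 128 CPM in IgG ETP, a log2 fold change of -0.999 ± 0.28 that did not pass (edgeR adjusted p = 0.675). Rn45s overlapped between the ETP groups, with 95497, 111710.0 and 71431 CPM in AntiNRR ETP, against 87803, 102810.0 and 149050.0 CPM in IgG ETP (-0.29 ± 0.20; edgeR adjusted p = 0.968). DN3 stage markers in these ETP libraries summed to 1815 to 3163 CPM in AntiNRR ETP and 3288 to 5053 CPM in IgG ETP, and their part in the members' values was not tested. The difference between the antibody's effects in DN3 and in ETP cells was tested directly. No member passed by edgeR (0.00% of 13603 genes) or DESeq2, 2 members had an unadjusted p under 0.05 in edgeR and were lower (2.62% of genes), and the median difference was -0.13 (DN3 minus ETP). That median depended on single libraries, at -0.020 without AntiNRR ETP 2, -0.086 without IgG ETP 2, -0.20 without AntiNRR ETP 1 and -0.21 without IgG ETP 3. For Rn45s the difference was 1.19 ± 0.30 (edgeR adjusted p = 0.901).

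After long-term deletion of Zmiz1 most members were lower in DN3 cells, although few passed the test. Zmiz1 itself had 119, 130.2 and 114 CPM in DeltaMxCre DN3, against 288, 354 and 322 CPM in MxCre DN3 (-1.41 ± 0.13; edgeR adjusted p = 0.000144), and was lower in every deleted library. A single member, Nop56, passed the edgeR test, where 0.458% of 12675 genes fell. DESeq2 called 7 members lower (1.65% of all genes), namely Nop56, Noc2l, Rcl1, Mrto4, Mybbp1a, Dkc1 and Ltv1. At an unadjusted p under 0.05 edgeR had 22 members, all lower, against 7.83% of genes. The median log2 fold change was -0.27 against -0.015 for all genes, and 45 members were below 0. Every DeltaMxCre library lay below every MxCre library in 28 members, against 10.4% of genes, and in no member was the order reversed.

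Nop56 had 182, 153 and 167 CPM in DeltaMxCre DN3, against 272, 245 and 242 CPM in MxCre DN3 (-0.60 ± 0.13; edgeR adjusted p = 0.0280). The groups were clear of each other, but its call was lost without MxCre DN3 1, MxCre DN3 2, DeltaMxCre DN3 2 or DeltaMxCre DN3 3 (edgeR adjusted p up to 0.200). Noc2l had 205, 199 and 197 CPM in DeltaMxCre DN3, against 304, 278 and 262 CPM in MxCre DN3 (edgeR adjusted p = 0.0574). Rcl1 had 41.8, 43.9 and 36.7 CPM in DeltaMxCre DN3, against 57.6, 63.5 and 74.03 CPM in MxCre DN3 (edgeR adjusted p = 0.0577). Neither overlapped between groups, and both missed the edgeR threshold. Mrto4 had 31.9, 27.2 and 34.5 CPM in DeltaMxCre DN3, against 55.1, 46.3 and 53.05 CPM in MxCre DN3 (-0.72 ± 0.18; edgeR adjusted p = 0.0587). Dkc1 was tight in both groups, with 155, 152 and 156 CPM in DeltaMxCre DN3, against 197, 210.0 and 228 CPM in MxCre DN3 (-0.46 ± 0.12; edgeR adjusted p = 0.0786). Mybbp1a had 472, 343 and 408 CPM in DeltaMxCre DN3, against 596, 564 and 595 CPM in MxCre DN3 (edgeR adjusted p = 0.0662). Ncl was at 1399, 1188 and 1272 CPM in DeltaMxCre DN3, against 1681, 1440.4 and 1546 CPM in MxCre DN3, apart but by less (-0.27 ± 0.13; edgeR adjusted p = 0.303). For Npm1 and Fbl the groups overlapped, with log2 fold changes of -0.35 ± 0.14 and -0.44 ± 0.17. Polr1b and Bop1 did not overlap, with log2 fold changes of -0.26 ± 0.14 and -0.30 ± 0.16, and did not pass.

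In the same comparison Rn45s was lower, with 47366, 45777 and 50462 CPM in DeltaMxCre DN3, against 77420.0, 89417 and 70286 CPM in MxCre DN3 (-0.72 ± 0.14; edgeR adjusted p = 0.0195), a call lost without MxCre DN3 2, DeltaMxCre DN3 2 or DeltaMxCre DN3 3. Myc had 106, 75.4 and 77.9 CPM in DeltaMxCre DN3, against 229, 132 and 102 CPM in MxCre DN3. The MxCre libraries were spread widely and overlapped the DeltaMxCre ones (-0.84 ± 0.29; edgeR adjusted p = 0.211; DESeq2 adjusted p = 0.0209). Without MxCre DN3 1, its highest library, the log2 fold change of Myc was -0.44 (edgeR adjusted p = 0.274), and without MxCre DN3 3 it was -1.07 and passed (edgeR adjusted p = 0.0244). Malat1 took 1.18% ± 0.19 of all counts in the DeltaMxCre libraries and 0.573% ± 0.22 in the MxCre libraries (SD, n = 3 each). Of 10 DN3 stage markers 1 fell, with sums of 7039 to 7799 CPM in DeltaMxCre DN3 and 8400.5 to 10334 CPM in MxCre DN3, and of 6 ETP stage markers tested 2 fell. Of 8 double-positive thymocyte markers 2 rose (as did 0.986% of all genes), with sums of 1755 to 2296 CPM in DeltaMxCre DN3 and 1316 to 1474 CPM in MxCre DN3, and of 5 mature T-cell markers tested 1 rose, with sums of 803 to 1145 CPM in DeltaMxCre DN3 and 578 to 741 CPM in MxCre DN3. Mitosis genes summed to 2407.5 to 3100 CPM in DeltaMxCre DN3 and 1660 to 5049 CPM in MxCre DN3. S-phase genes summed to 3800.5 to 4725 CPM in DeltaMxCre DN3 and 4268 to 6437 CPM in MxCre DN3. The part of these marker and cell-cycle genes in the members' values was not tested. Among the 107 other ribosome biogenesis genes 1 fell, where 0.458% of all genes did. Below 0 were 90 of the 107 (median -0.19), where 51.6% of all genes were.

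In ETP cells 8 weeks after pI-pC no member passed edgeR or DESeq2, where edgeR called 0.0416% and DESeq2 0.716% of 12010 genes. There was 1 member with an unadjusted p under 0.05 (lower, as were 2.85% of genes). The median log2 fold change was -0.14 against -0.029 for all genes, with 37 members below 0, and only 2 members were lower in every DeltaMxCre library (6.39% of genes) and 1 higher (6.16%). The member with the lowest p, Rrp9, had 20.4, 14.8 and 16.3 CPM in DeltaMxCre ETP, against 37.7, 15.95 and 49.2 CPM in MxCre ETP, overlapping (-1.0002 ± 0.43; edgeR adjusted p = 0.847). Mphosph10, a processome protein, came next with 38.4, 15.4 and 48.95 CPM in DeltaMxCre ETP, against 22.4, 12.02 and 25.01 CPM in MxCre ETP (0.79 ± 0.46; edgeR adjusted p = 0.963). Noc4l, a small-subunit factor, had 29.2, 11.4 and 8.10 CPM in DeltaMxCre ETP, against 26.2, 30.9 and 28.3 CPM in MxCre ETP (-0.81 ± 0.48; edgeR adjusted p = 0.964). The groups of both genes overlapped, and their fold changes lay on opposite sides of 0. Ncl had 822, 875 and 801 CPM in DeltaMxCre ETP, against 932, 643 and 979 CPM in MxCre ETP. Dkc1 had 127, 137 and 145 CPM in DeltaMxCre ETP, against 122, 102 and 146 CPM in MxCre ETP. In both genes the deleted libraries fell inside the spread of the MxCre ones. Without MxCre ETP 3 the median moved to -0.018 and no member was called. Zmiz1 had 54.02, 89.4 and 106 CPM in DeltaMxCre ETP, against 298, 223 and 142 CPM in MxCre ETP, which did not overlap but did not pass (edgeR adjusted p = 0.256). ETP stage markers summed to 388 to 496 CPM in DeltaMxCre ETP and 792 to 1088 CPM in MxCre ETP. DN3 stage markers summed to 4279 to 5011 CPM in DeltaMxCre ETP and 2548 to 3459 CPM in MxCre ETP, and double-positive markers to 952 to 1205 CPM in DeltaMxCre ETP and 540.5 to 909 CPM in MxCre ETP. Il2ra was at 4571 to 5022.5 CPM in DeltaMxCre ETP and 1647 to 2327 CPM in MxCre ETP. None of these ranges overlapped, and the part of these shifts in the members' values was not tested. The difference between the deletion's effects in DN3 and ETP had a median of -0.13 over the members (-0.28 without MxCre ETP 3 and -0.037 without DeltaMxCre DN3 2), and no member passed by either tool (edgeR called 0.00746% of 13406 genes lower). At an unadjusted p under 0.05 edgeR had 4 members lower, against 2.63% of genes.

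After acute deletion of Zmiz1 every member was slightly lower in DN3 cells, in the most deeply sequenced libraries. Zmiz1 had 201, 243, 184 and 188 CPM in DeltaTamCre DN3, against 354, 322, 301 and 312 CPM in TamCre DN3 (-0.66 ± 0.097; edgeR adjusted p = 0.0368). The groups did not overlap, but the call was kept in only 1 of 8 fits with a library left out, that without DeltaTamCre DN3 2 (edgeR adjusted p up to 0.162 in the others). All 51 members had a log2 fold change below 0, from -0.36 in Nop16 to -0.11 in Mphosph10, with a median of -0.25 against 0.012 for all genes. No member passed the edgeR test, where 0.0301% of 13298 genes fell. At an unadjusted p under 0.05 edgeR had 35 members, all lower (8.26% of genes), and DESeq2 called 7 lower (1.61% of genes), namely Nop16, Mrto4, Imp3, Npm1, Nop10, Ebna1bp2 and Fbl. In 22 members every DeltaTamCre library was below every TamCre library (5.81% of genes). Nop16, a factor of the large subunit, had 53.2, 55.7, 57.97 and 56.4 CPM in DeltaTamCre DN3, against 78.6, 66.7, 70.7 and 70.3 CPM in TamCre DN3 (-0.36 ± 0.069; edgeR adjusted p = 0.107; DESeq2 adjusted p = 0.00213). Mrto4 had 91.3, 101, 96.5 and 98.6 CPM in DeltaTamCre DN3, against 133, 119.6, 116 and 121 CPM in TamCre DN3 (-0.34 ± 0.068; edgeR adjusted p = 0.112). Imp3, a component of the U3 particle, had 71.001, 76.9, 78.3 and 73.5 CPM in DeltaTamCre DN3, against 96.8, 86.3, 89.99 and 86.9 CPM in TamCre DN3 (edgeR adjusted p = 0.128). In each of these 3 genes the groups were separate, although the differences were small. Npm1 had 1892, 2046, 1703 and 1649.9 CPM in DeltaTamCre DN3, against 2283, 2079.8, 2272 and 2302 CPM in TamCre DN3 (-0.29 ± 0.089; edgeR adjusted p = 0.178). Ncl overlapped, with 1706, 2312, 1795 and 1623 CPM in DeltaTamCre DN3, against 2351, 1876, 2321 and 2410.3 CPM in TamCre DN3 (-0.27 ± 0.12). The library TamCre DN3 2 was far below the other TamCre libraries. Myc had 438, 376, 545 and 494 CPM in DeltaTamCre DN3, against 603, 665, 607 and 628 CPM in TamCre DN3, without overlap (-0.43 ± 0.11; edgeR adjusted p = 0.128; DESeq2 adjusted p = 0.00960). The sums of double-positive markers were 981 to 1049 CPM in DeltaTamCre DN3 and 868 to 965 CPM in TamCre DN3, and their part in the members' values was not tested. Among the 107 other ribosome biogenesis genes none passed edgeR, DESeq2 called 9 lower, and 101 were below 0 (median -0.15), where 47.8% of all genes were.

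In ETP cells after tamoxifen no member passed edgeR or DESeq2, and among 12924 genes 0.00% passed edgeR and 0.0155% passed DESeq2. There were 6 members with an unadjusted p under 0.05, all lower, where 2.30% of genes were. The median log2 fold change was -0.14 against 0.032 for all genes, with 42 members below 0, and 5 members were lower in every DeltaTamCre library (2.19% of genes). Dkc1 had 92.2, 133, 132 and 126 CPM in DeltaTamCre ETP, against 154, 171, 156 and 161 CPM in TamCre ETP (-0.41 ± 0.14; edgeR adjusted p = 0.907). Ncl had 1658, 1786, 1912 and 2144 CPM in DeltaTamCre ETP, against 2231, 2426, 2323 and 2418 CPM in TamCre ETP (-0.33 ± 0.13; edgeR adjusted p = 0.907). Both were without overlap, and DeltaTamCre ETP 1 was the lowest library in each. Gnl3 had 61.1, 77.6, 67.01 and 60.9 CPM in DeltaTamCre ETP, against 81.6, 89.998, 77.96 and 83.4 CPM in TamCre ETP (-0.32 ± 0.13; edgeR adjusted p = 0.907). Gar1, the member with the lowest p, had overlapping groups, with 10.7, 17.4, 12.4 and 14.6 CPM in DeltaTamCre ETP, against 15.96, 33.03, 28.02 and 22.4 CPM in TamCre ETP (-0.85 ± 0.25; edgeR adjusted p = 0.907). Zmiz1 had 174, 120.3, 307 and 202 CPM in DeltaTamCre ETP, against 424, 418, 461 and 458 CPM in TamCre ETP, without overlap (-1.13 ± 0.23; edgeR adjusted p = 0.907; DESeq2 adjusted p = 0.00761). Myc had 139, 198, 195 and 153 CPM in DeltaTamCre ETP, against 219, 220, 210 and 204 CPM in TamCre ETP, without overlap, and did not pass edgeR. Mitosis genes summed to 1512 to 3735 CPM in DeltaTamCre ETP and 3625 to 5041 CPM in TamCre ETP, and S-phase genes to 2260 to 5432 and 4568 to 4969 CPM. Markers of other cells varied between these libraries. Double-positive markers summed to 482 to 2695 CPM in DeltaTamCre ETP and 525 to 1384 CPM in TamCre ETP. Natural killer markers summed to 49.4 to 1007 CPM in DeltaTamCre ETP and 70.4 to 409 CPM in TamCre ETP. The part of these shifts in the members' values was not tested. Without DeltaTamCre ETP 1 the median of the members was -0.073, and without DeltaTamCre ETP 2 it was -0.22.

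**Figure D3:**
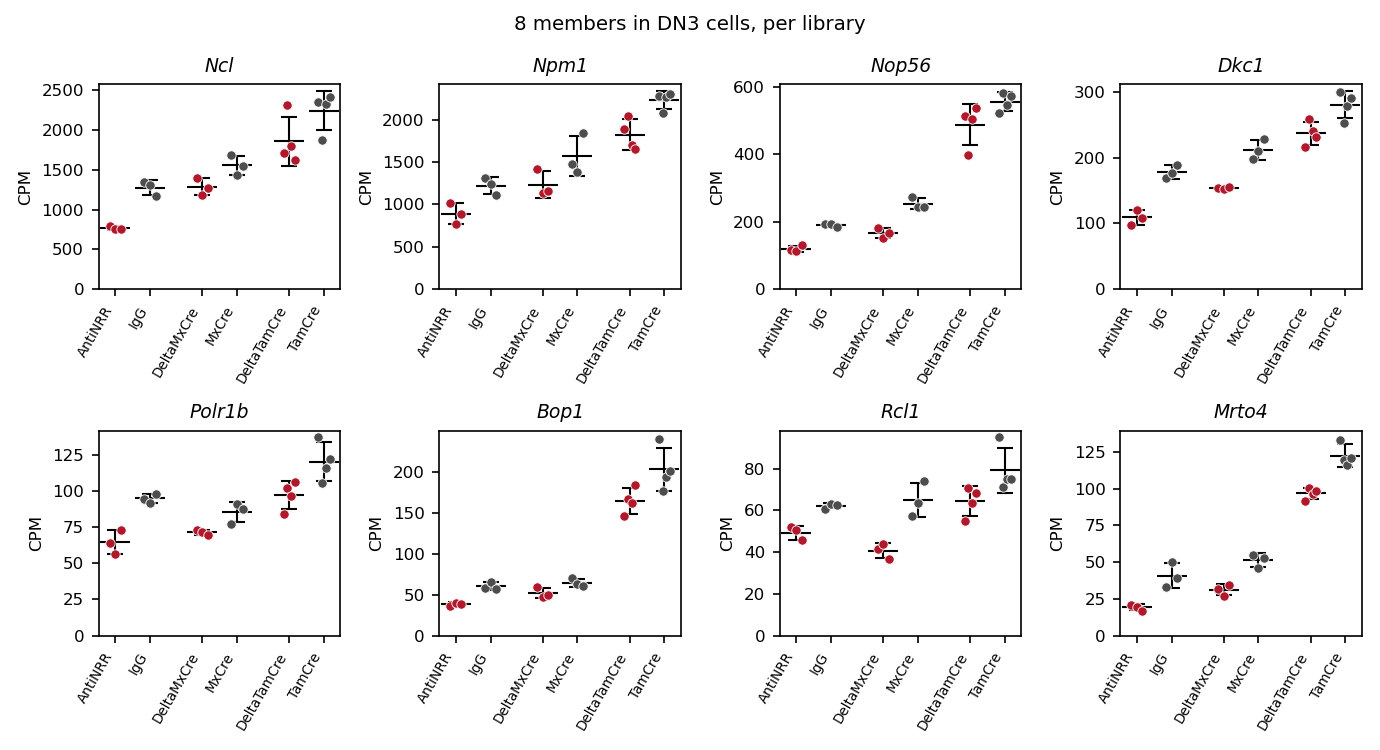
Levels of 8 members in DN3 cells (y axis, CPM, scaled within each comparison), by group (x axis); points are libraries, the bar is the mean and the whiskers are 1 SD. Dkc1 and Mrto4 are lower in AntiNRR than in IgG and in DeltaMxCre than in MxCre without overlap, and Mrto4 also in DeltaTamCre against TamCre.

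Across the 3 DN3 comparisons, which share no library, 45 of 51 members (88.2%) were below 0 in each, where 21.6% of the 11810 genes tested in all 3 were. The exceptions were Bysl, Ebna1bp2, Gar1, Nip7, Noc3l and Tsr1. Across the 3 ETP comparisons 28 members were below 0 in each (14.3% of 11498 genes), and across all 6 comparisons 26 were (6.92% of 11098 genes). Those 26 include Ncl, Npm1, Fbl, Nop58, Gnl3, Pa2g4, Mybbp1a, Polr1a, Bop1 and Mrto4. The sign of Ncl in pI-pC ETP rested on single libraries, at 0.038 without MxCre ETP 1 and 0.084 without MxCre ETP 3. No member was above 0 in all comparisons of either stage. The 27 members called under Notch1 block in DN3 were close to the whole set in the deletions. In pI-pC DN3 their median log2 fold change was -0.30 with 25 below 0, against -0.27 with 45 below 0 for all 51. In tamoxifen DN3 it was -0.28, against -0.25 for all 51, every one of which was below 0. Sizes did not follow one order across treatments. Over the 51 members Pearson's r between log2 fold changes was 0.11 for pI-pC DN3 with Notch1 block DN3. It was 0.37 for pI-pC DN3 with tamoxifen DN3 and 0.27 for tamoxifen DN3 with Notch1 block DN3. Over all 11810 genes r was 0.063, 0.39 and 0.15 in that order. Spearman's rho over the members was 0.081, 0.37 and 0.22. In ETP cells r over the members was 0.12 for pI-pC with tamoxifen, -0.012 for pI-pC with Notch1 block and 0.31 for tamoxifen with Notch1 block. Over all 11498 genes it was -0.013, -0.033 and 0.083. These correlations run across genes, which share libraries and are not independent replicates.

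**Figure D4:**
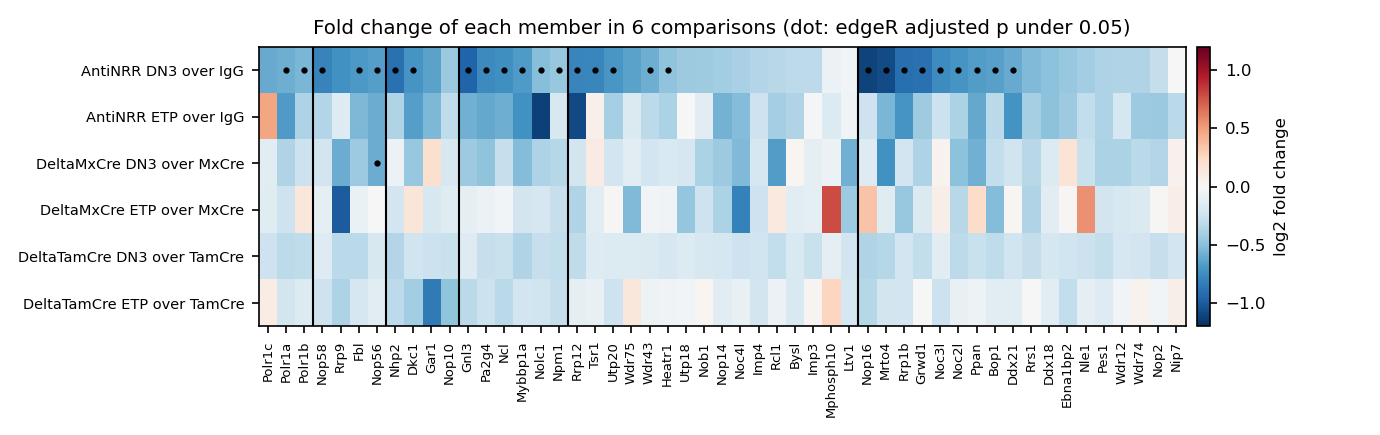
Log2 fold change (colour) of each member (columns, by role) in 6 comparisons (rows, treated or deleted over control). Black dots mark an edgeR adjusted p under 0.05, which are 27 in the AntiNRR DN3 row and 1 in the DeltaMxCre DN3 row. The DeltaTamCre DN3 row is pale blue throughout, with every value between -0.36 and -0.11.

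The effect of pI-pC deletion was set against that of the antibody within the table they share. In DN3 cells the median difference over the members was 0.23 (deletion minus block), with 43 members above 0, so that most were less far below their controls after deletion. Only Tsr1 passed edgeR, where 0.76% of 13557 genes were higher, and DESeq2 called Tsr1, Noc3l, Nop58 and Ncl higher (1.54% of genes). Tsr1 had a difference of 0.86 ± 0.22 (SE; edgeR adjusted p = 0.0429), a call that was lost on leaving out any of 9 of the 12 libraries. After deletion it had 70.05, 58.98 and 71.4 CPM in DeltaMxCre DN3, against 64.2, 58.3 and 64.2 CPM in MxCre DN3, overlapping, while after the antibody it was lower in every library, as described for the block. In ETP cells the median difference was 0.34 (0.22 without AntiNRR ETP 1), and no member passed by either tool (0.082% of 13408 genes by edgeR). At an unadjusted p under 0.05 edgeR had 7 members higher, against 3.11% of genes.

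Between stages of control mice edgeR called 2 members in IgG mice and none in MxCre mice. In IgG mice 2 members were higher in DN3 than in ETP by edgeR, where 7.12% of 12720 genes were higher and 7.60% lower, and none was lower. DESeq2 called 2 higher (8.17% of genes) and 1, Wdr12, lower (9.5%). Ncl had 1308, 1277 and 1139 CPM in IgG DN3, against 736, 747 and 878 CPM in IgG ETP (0.66 ± 0.12; edgeR adjusted p = 0.00149). Ddx21 had 369, 470.1 and 414 CPM in IgG DN3, against 258, 266 and 303 CPM in IgG ETP (0.60 ± 0.13; edgeR adjusted p = 0.00443). Both were separate in every library and were called by DESeq2 too. Wdr12 had 105, 96.3 and 77.1 CPM in IgG DN3, against 122, 124 and 131 CPM in IgG ETP, lower without overlap (-0.43 ± 0.15; edgeR adjusted p = 0.0581; DESeq2 adjusted p = 0.0432). The median over the 51 was 0.046. In MxCre mice no member passed edgeR, where 0.895% of 12399 genes were higher, 9 members were higher at an unadjusted p under 0.05 and 1 lower (7.55% and 9.15% of genes), and DESeq2 called 6 higher (3.34%), namely Ddx21, Nolc1, Ncl, Nop14, Mybbp1a and Dkc1. The median was 0.18 (0.11 without MxCre ETP 1 and 0.28 without MxCre ETP 3), and 37 members were above 0. Without overlap 12 members were higher (12.3% of genes) and 2 lower (11.9%). Ncl there had 1561, 1344 and 1433 CPM in MxCre DN3, against 963, 666 and 1025 CPM in MxCre ETP (0.71 ± 0.21; edgeR adjusted p = 0.126). Ddx21 had 414, 416 and 455 CPM in MxCre DN3, against 289.8, 248 and 283 CPM in MxCre ETP (0.65 ± 0.17; edgeR adjusted p = 0.0851). Nolc1 had 182, 167 and 180.1 CPM in MxCre DN3, against 111, 81.03 and 117 CPM in MxCre ETP (0.78 ± 0.20; edgeR adjusted p = 0.0765). Nop14, a processome factor, had 101, 96.5 and 101 CPM in MxCre DN3, against 66.96, 64.1 and 53.1 CPM in MxCre ETP (0.70 ± 0.19; edgeR adjusted p = 0.0924; DESeq2 adjusted p = 0.0269). All 4 genes were higher in every DN3 library than in any ETP library. In these control mice Rn45s was lower in DN3 than in ETP, with a log2 difference of -1.94 ± 0.19 in IgG and -1.14 ± 0.21 in MxCre mice (edgeR adjusted p = 2.07e-05 and 0.0209). These stage comparisons share their control libraries with the treatment comparisons. They treated DN3 and ETP libraries as independent, and whether these came from the same mice was not tested.

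**Figure D5:**
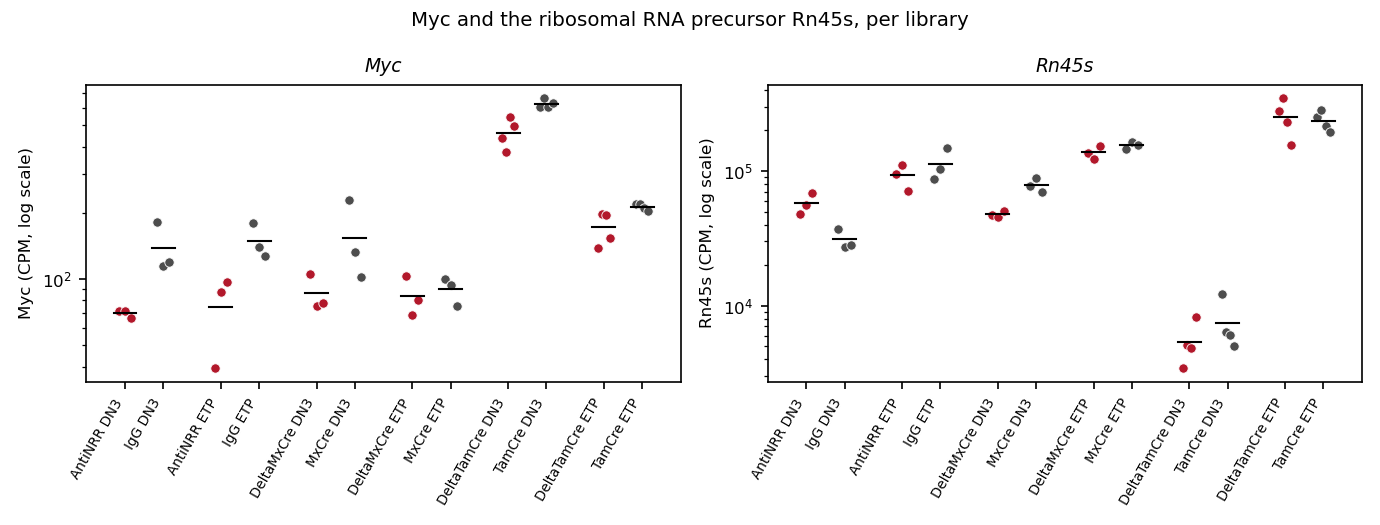
Level of Myc (left) and of Rn45s (right) in each library (y axes, CPM on log scales), by group (x axis). Bars are means. Counts of Rn45s do not separate the precursor from mature ribosomal RNA. Myc is lower in AntiNRR DN3 than in IgG DN3, whereas Rn45s is higher in AntiNRR DN3 and lower in DeltaMxCre DN3 than in their controls; levels are not comparable between tables.

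Because Myc and its partner Max bind the E-box CACGTG, the members' promoters were searched for it. RefSeq promoter windows on GRCm38.p6, from 250 bases before to 50 bases after the gene start, were found for 46 of the 51 members. CACGTG, which reads the same on both strands, stood in 11 of the 46 (23.9%; exact 95% binomial interval 12.6% to 38.8%) and in 8.09% of the 27025 genes with a window of that length. Those genes were not limited to genes expressed in these cells, as the members were, so the shares are not of like sets. In the 100 bases before the start it stood in 2 of 46 (4.35%) and in 3.70% of all genes, so most matches in members lay elsewhere in the window. The sequences around the match are shown for the 5 of these members that fell under Notch1 block in DN3, with the motif in capitals and each strand read 5' to 3'. In Wdr43 the match began 18 bases after the start, in Tsr1 25, in Grwd1 35, in Utp20 38 and in Mybbp1a 41.
Wdr43, chr17:71616220-71616249, plus strand: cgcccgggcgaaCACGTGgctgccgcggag
Tsr1, chr11:74898092-74898121, plus strand: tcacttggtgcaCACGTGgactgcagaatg
Grwd1, chr7:45830740-45830769, minus strand: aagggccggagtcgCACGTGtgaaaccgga
Utp20, chr10:88826765-88826794, minus strand: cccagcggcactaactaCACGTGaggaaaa
Mybbp1a, chr11:72441347-72441376, plus strand: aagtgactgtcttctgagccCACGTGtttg

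The other members with the motif were Imp4, Ltv1, Nle1, Nop2, Pes1 and Utp18, none of which passed in that comparison. Of the 11 members with the motif 5 fell (45.5%; median log2 fold change -0.44), and of the 35 with a window and no motif 18 fell (51.4%; median -0.61). Of the 5 members without a window, Fbl, Npm1, Rrp12, Bop1 and Rrs1, 4 fell. A match in a window is a description of its letters, not evidence of binding, and no match says only that these letters are not in that window.

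Some members cannot be counted cleanly by position. In GENCODE M21 on GRCm38, 20 of the 51 share exons with a gene on the opposite strand, among them Nop56 with Idh3b, Dkc1 with Mpp1, Mybbp1a with Spns2 and Tsr1 with Srr. The sources used here do not say whether counting used strand, so reads of such pairs cannot be told apart. In addition 8 members hold 23 small nucleolar RNA genes within their bounds, including 5 in Nop56, 4 in Nop58 and 3 in Ncl. The members lie on 17 chromosomes, with at most 7 on any of them.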

How the data were processed

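Gene-level RNA sequencing counts of sorted mouse thymocytes were analysed in 40 libraries and 12 groups. The authors deposited estimated counts per gene in 3 tables, which the values show to be unnormalized: they are nearly all whole numbers, with 1.23%, 1.84% and 1.21% of the non-zero values further than 0.01 from one. Per the submitters' processing notes the build was mm10 and the tools included Bowtie2 2.1.0.0, TopHat2 2.0.9, Cuffdiff 2.1.1, Cufflinks and FastQC 0.10.0. Which program made the counts, its annotation and its use of strand are not given in the sources used here. Per the labels' protocols the pI-pC and antibody libraries, the tamoxifen DN3 libraries and the tamoxifen ETP libraries came from 3 different kits, so no test crossed tables.

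Estimated counts were rounded to whole numbers and tested with edgeR 4.0.16 (limma 3.58.1, R 4.3.3): filterByExpr with a minimum count of 10 and a minimum total of 15, TMM scaling, robust quasi-likelihood fits of the libraries of each comparison over all genes, a prior count of 0.125 and Benjamini-Hochberg adjustment at 0.05. CPM values were scaled by TMM over the libraries of the comparison, while shares of counts, marker sums and levels per kilobase used each table as a whole. Differences between effects were interaction terms over 4 groups. DESeq2 1.42.0, other scalings and filters, a replicate block, a spread shared by the groups of a stage and leaving out single libraries were alternatives, and the script was tested on simulated data. Total counts per library ran from 9456818 to 91659598, which sets the precision of low genes. Standard errors came from the quasi-likelihood fits and include the spread between libraries. The binomial interval of the promoter share covers counting error only.

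The 51 members and all gene lists were chosen with earlier results of these data known. Values in every library are given for members past the threshold (at least the 8 with the lowest p where more passed), for the 3 with the lowest p where fewer passed in a comparison of 2 groups, and for one or more members per role. A member that DESeq2 alone called was also named.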

Additional observations from a re-analysis of the deposited data

Results flagged for a closer look

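In groups of 4 libraries, the highest or lowest library was set against the other 3 by Dixon's gap ratio at the 95% level. This was done for members described by library, for Myc and Zmiz1, and for measures of whole libraries. Those measures were the share and mean level of the members and the shares of Rn45s and Malat1. Of 68 such groups 4 held a library that stood apart, where chance gives about 1 in 20. All 4 were of members, so the rate among members alone was higher than 4 of 68. Nucleolin (Ncl) was at 1877 CPM in TamCre DN3 2, and at 2321 to 2410.3 CPM in the other TamCre DN3 libraries. Npm1 was at 2079.8 CPM in the same library, and at 2272 to 2302 CPM in the other 3. Both are controls, so the library narrows the difference from DeltaTamCre DN3, and the median over the members was -0.28 without it. Rcl1 was at 95.2 CPM in TamCre DN3 1, above 71.4 to 75.2 CPM in the other 3. Polr1b was at 34.7 CPM in DeltaTamCre ETP 1, below 48.6 to 50.8 CPM in the others. That library also held the lowest Ncl and Dkc1 of its group.

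Tsr1 differed between 2 treatments of DN3 cells. Its log2 fold change after pI-pC deletion exceeded that after Notch1 block by 0.86 (edgeR interaction term, adjusted p = 0.0429). The call was lost on leaving out any of 9 of 12 libraries, and Tsr1 shares exons with Srr on the opposite strand. The cause was not tested.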

How the results depend on the processing

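The number of members called under Notch1 block in DN3 was 26 to 28 under 7 other settings and 16 to 25 on leaving out each library in turn. Counts after pI-pC deletion in DN3, 1 by edgeR, were 7 with DESeq2, 5 without a filter, 2 with the replicate block, 7 with a spread shared by 4 groups and 0 to 4 with 1 library left out, and the median ran from -0.37 to -0.21 in those last fits. DESeq2 called 7 members in tamoxifen DN3 and 2 in Notch1 block ETP, where edgeR called none. Between stages in MxCre mice the count was 6 with DESeq2, 3 with the replicate block and 0 to 1 with 1 library left out. In IgG mice it was 2 to 5, and the median ran from -0.022 to 0.090, turning negative without IgG ETP 1 (-0.0062) or IgG ETP 2 (-0.022) and moving to 0.0039 without IgG DN3 2. The median difference of the pI-pC effect between DN3 and ETP ran from -0.28 to -0.037, and was also -0.059 without MxCre ETP 2, -0.086 without MxCre DN3 3 and -0.20 without DeltaMxCre DN3 1. The replicate block ended the call of Zmiz1 in tamoxifen DN3 (adjusted p = 0.473) and made one of Myc in pI-pC DN3 (adjusted p = 0.0248). For the pI-pC effect minus the Notch1 block effect in DN3, DESeq2 called 4 members and leaving out single libraries gave 0 to 2. In the 100 bases before the start 4.35% of member promoters held CACGTG.

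Signs turned only in genes near 0, none of which passed. In pI-pC ETP, Nop56 was at -0.019 with upper-quartile scaling and ran from -0.15 to 0.11 with 1 library left out, Ncl from -0.20 to 0.084 and Myc from -0.27 to 0.030. In Notch1 block DN3, Nip7 was at -0.0081 with upper-quartile scaling and ran from -0.11 to 0.088, Ltv1 was at 0.0032 with the replicate block and ran from -0.23 to 0.19, and Mphosph10 from -0.29 to 0.11. Of the values of single genes under alternatives, 1645 kept direction and side of the threshold, 73 lost a call, 50 gained one and 16 changed sign. The causes were not tested. Libraries were not treated as paired by replicate number. In no comparison did every same-numbered pair correlate above 0.1 or every library correlate best with its own number. Same-numbered pairs correlated at 0.049 to 0.13 in tamoxifen ETP and at -0.33 to -0.012 in tamoxifen DN3. Such correlations over few libraries cannot show whether libraries came from the same mice. Numbers other than those given moved within 1.5 times under the replicate block. Depth limits low members, whose counts reached 86.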
